A study of Mus musculus with 59 samples.

Results

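A set of 10 genes that mark resting microglia or encode the complement protein C1q was followed through the ventral tegmental area (VTA) of male mice after cocaine. Dopamine neurons of this part of the midbrain send axons to the striatum and the cortex, and cocaine blocks the transporter that clears dopamine from the synapse. The genes were taken by symbol from the deposited expression table of 24346 symbols, and all 10 were in it: P2ry12, P2ry13, Cx3cr1, Csf1r, Trem2, Tmem119, Siglech, C1qa, C1qb and C1qc. The list was made by name and no measured value entered the rule, but it was chosen with earlier results of these data known. RNA from the whole region was sequenced in 59 libraries in 8 groups. Acute cocaine given by injection in the home cage had 5 libraries and acute saline 6. Chronic cocaine given by injection in the home cage had 6 libraries and chronic saline 6. Conditioning with cocaine had 6 libraries and conditioning with saline 6, and intravenous self-administration of cocaine had 15 libraries against 9 for self-administration of saline. The labels used here give no strain, age or dose, and neither the type of conditioning nor how long after cocaine the tissue was taken. Nor do they state that each sample is its own animal, so a p-value reflects the spread between samples alone, and that spread may be technical.

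Microglia are the resident macrophages of the brain. In the undisturbed state they scan the tissue with fine processes, and a set of surface receptors that sense nucleotides, chemokines, growth factors and lipids marks that state. P2RY12 and P2RY13 are related receptors for ADP, and P2RY12 steers processes towards injured cells. CX3CR1 binds the neuronal chemokine fractalkine, CSF1R is the tyrosine kinase receptor for CSF1 and IL-34 on which microglia depend for survival, and TREM2 senses lipids and signals through the adaptor TYROBP. TMEM119 is a membrane protein used as a microglial marker in the brain, and SIGLEC-H is a lectin of microglia that plasmacytoid dendritic cells also carry. C1QA, C1QB and C1QC are the chains of C1q, the recognition protein that starts the classical complement cascade, and microglia are its main source in the brain.

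In the GENCODE M21 annotation of GRCm38 all 10 genes are protein coding. The C1q genes lie side by side on the minus strand of chromosome 4: C1qb at chr4:136880129-136886187, C1qc at chr4:136889804-136893065 and C1qa at chr4:136895917-136898803, together 18675 bases from end to end. P2ry13 (chr3:59207892-59210882) and P2ry12 (chr3:59216272-59262871) are neighbours on the minus strand of chromosome 3 and span 54980 bases. Both lie inside Med12l, a Mediator subunit gene on the plus strand. Whether the kit or the counting kept strand is not given in the sources used here. Any Med12l reads that fall on these receptors may therefore not have been told apart from their own. Cx3cr1 (chr9:119901616-120069879, minus strand) overlaps several genes, and Csf1r is described with its values. The other genes overlap none: Tmem119 (chr5:113793729-113800516, minus strand), Siglech (chr7:55768178-55778925, plus strand) and Trem2 (chr17:48346401-48354147, plus strand).

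RefSeq promoters of GRCm38.p6, 250 bases before to 50 bases after the transcription start, were matched by symbol for 7 of the 10 genes. Those of P2ry13, P2ry12, C1qb, C1qc and Trem2 are printed here: P2ry13 had the most negative cocaine differences in 3 paradigms and P2ry12 is its neighbour, C1qb and C1qc are a pair of C1q chains that varied together, and Trem2 differed most between paradigms. The windows are chr3:59210833-59211132, chr3:59262936-59263235, chr4:136886151-136886450 and chr4:136892865-136893164, all on the minus strand, and chr17:48346151-48346450 on the plus strand. Each is written 5′ to 3′ on the strand of the gene, and capitals mark GAGGAA, the core that the macrophage factor PU.1 binds, or its reverse complement TTCCTC.
P2ry13: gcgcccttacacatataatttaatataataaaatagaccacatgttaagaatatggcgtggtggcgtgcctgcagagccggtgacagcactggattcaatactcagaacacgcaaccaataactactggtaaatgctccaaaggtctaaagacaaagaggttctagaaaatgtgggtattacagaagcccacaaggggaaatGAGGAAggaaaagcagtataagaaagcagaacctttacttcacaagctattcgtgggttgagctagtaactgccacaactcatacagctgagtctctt
P2ry12: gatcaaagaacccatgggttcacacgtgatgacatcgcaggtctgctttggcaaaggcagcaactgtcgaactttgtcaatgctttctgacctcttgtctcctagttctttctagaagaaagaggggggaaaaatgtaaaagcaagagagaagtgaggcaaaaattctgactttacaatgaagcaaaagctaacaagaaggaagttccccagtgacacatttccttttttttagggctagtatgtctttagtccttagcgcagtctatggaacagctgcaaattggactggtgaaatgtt
C1qb: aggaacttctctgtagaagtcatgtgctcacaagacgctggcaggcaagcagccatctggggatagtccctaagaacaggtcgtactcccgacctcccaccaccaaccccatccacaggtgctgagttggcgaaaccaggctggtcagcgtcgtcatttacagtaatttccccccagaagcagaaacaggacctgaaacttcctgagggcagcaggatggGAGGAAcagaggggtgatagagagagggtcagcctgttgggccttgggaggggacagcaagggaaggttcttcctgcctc
C1qc: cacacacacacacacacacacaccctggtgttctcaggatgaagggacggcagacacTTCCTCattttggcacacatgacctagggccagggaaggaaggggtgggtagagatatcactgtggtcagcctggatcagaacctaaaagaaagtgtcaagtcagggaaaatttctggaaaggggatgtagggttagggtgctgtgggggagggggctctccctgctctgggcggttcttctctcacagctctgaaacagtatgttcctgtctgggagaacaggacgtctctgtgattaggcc
Trem2: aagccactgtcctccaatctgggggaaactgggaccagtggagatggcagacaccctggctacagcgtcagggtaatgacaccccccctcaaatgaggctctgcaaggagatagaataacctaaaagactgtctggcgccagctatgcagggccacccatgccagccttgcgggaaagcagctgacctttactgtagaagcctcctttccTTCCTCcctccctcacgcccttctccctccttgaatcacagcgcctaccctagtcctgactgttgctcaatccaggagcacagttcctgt

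The core GAGGAA, searched on both strands, was in 5 of the 7 promoters matched (P2ry13, C1qb, C1qc, Siglech and Trem2), and 28.3% of all 32851 promoters in the table held it. Counted from the start, its first printed base was at -48 in P2ry13, -30 in C1qb, -193 in C1qc, -4 in Siglech and -40 in Trem2. P2ry12 and Cx3cr1 had no match in this window. The longer Ets-IRF composite element, also searched on both strands and able to overlap the PU.1 core, was in 0 of the 7 and in 2.72% of all promoters.

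The values are FPKM, fragments scaled to transcript length and library size, which allows levels to be compared between genes. How library size was scaled is not stated in the sources read. Library sums of FPKM ran from 398577 to 457508. The read depth behind them is unknown, so no interval for counting error is given. None of the 10 genes was at 0 in any library, and all 10 passed the filter of a mean of at least 1 FPKM in every comparison. The defining microglial markers were therefore present in all 59 libraries. Th, the enzyme that marks dopamine neurons, ran from 128 to 499 FPKM in self-administration libraries and from 124 to 691 FPKM in the others. Of other immune cells, Mrc1, a receptor of perivascular macrophages, averaged 0.895 ± 0.301 FPKM in self-administration saline (SD, n = 9), and Ccr2, a receptor of blood monocytes, 0.0631 ± 0.0651 FPKM in the same group. Other genes of blood leukocytes were higher, and the summed FPKM of the 12 on that list reached 50.1 in self-administration cocaine and 72.4 in self-administration saline. In tissue RNA, fewer microglia and less RNA per microglial cell cannot be told apart.

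Over all 59 libraries the C1q chains were the most abundant of the 10 transcripts, at 36.0 ± 5.87 FPKM for C1qb, 32.0 ± 6.58 FPKM for C1qa and 26.6 ± 5.65 FPKM for C1qc (mean ± SD). Csf1r followed with 17.1 ± 2.63 FPKM. P2ry12 averaged 9.77 ± 2.25 FPKM, Tmem119 7.69 ± 1.67, Cx3cr1 7.55 ± 1.56 and Trem2 6.42 ± 1.91. Siglech at 3.48 ± 0.733 FPKM and P2ry13 at 2.59 ± 0.638 FPKM were lowest. The plot of FPKM per library shows all groups.

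**Figure D1:**
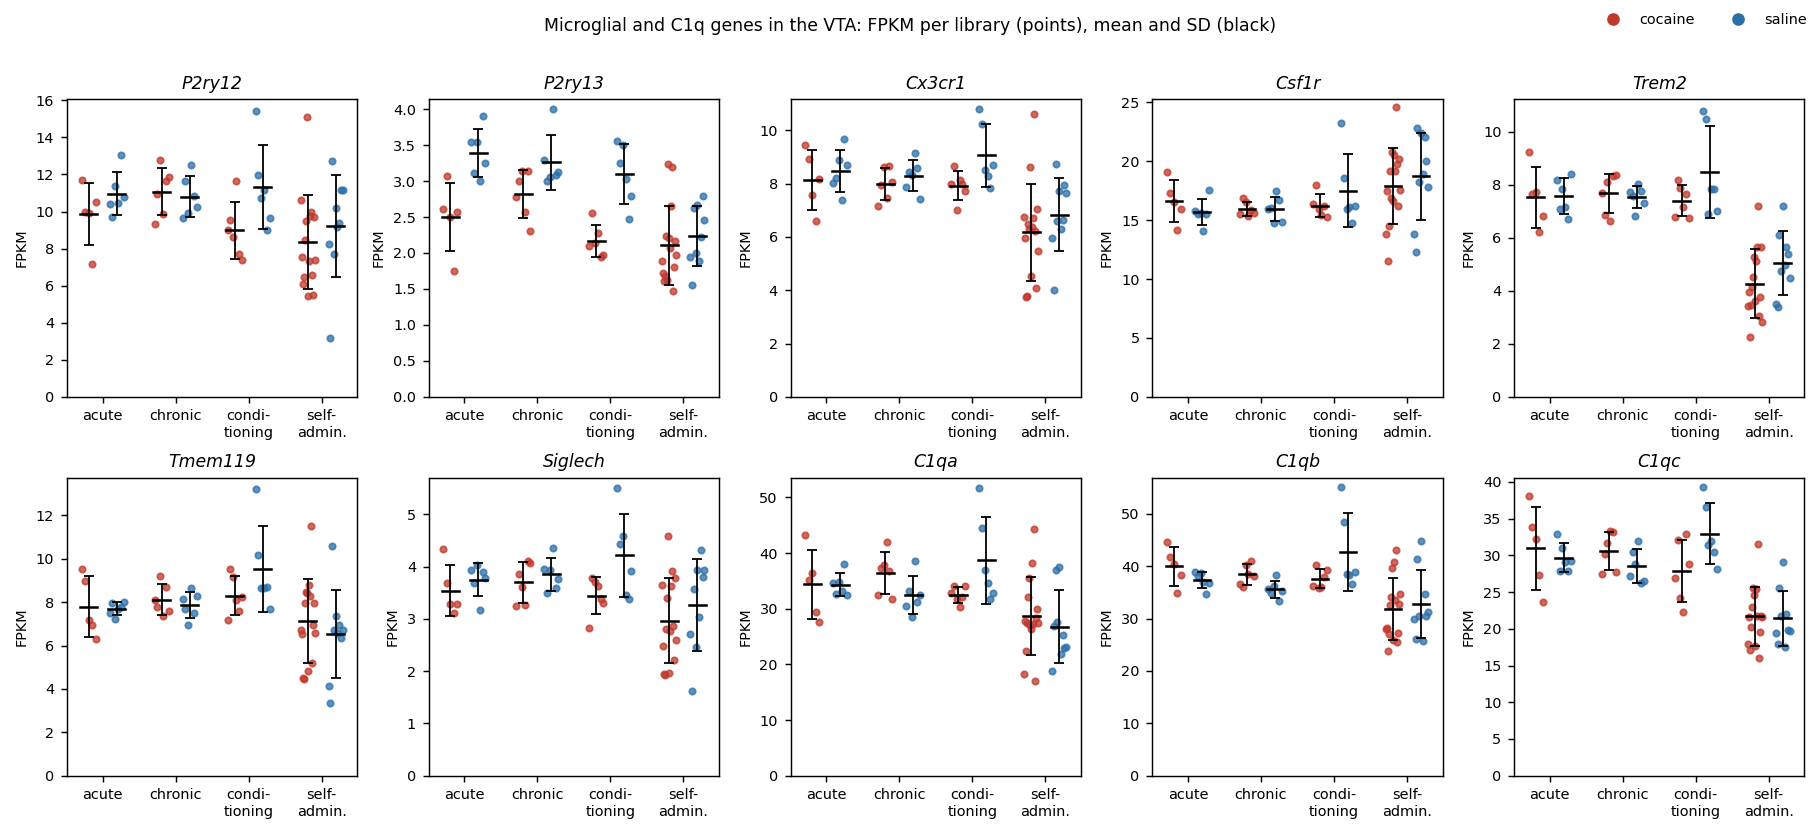
FPKM (vertical axes, starting at 0) of each of the 10 genes in every library, by paradigm, with cocaine in red and saline in blue; black lines are the mean and SD of a group. P2ry13 cocaine libraries sit low in the acute and conditioning paradigms, and the self-administration libraries of Trem2 lie low in both drug groups.

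The chains of C1q had one order in most libraries. C1qb exceeded C1qa and C1qa exceeded C1qc in 46 of 59 libraries, C1qc was lowest of the chains in 56, and C1qb was highest in 49. The ratio of C1qb to C1qc was 1.49 ± 0.102 in the 24 self-administration libraries and 1.29 ± 0.113 in the 35 libraries of the other paradigms (SD).

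Cocaine was compared with saline within each paradigm on log2(FPKM + 1), a scale on which low genes such as P2ry13 and Siglech show less than their full change. Differences are cocaine minus saline with their standard error (SE), tested by limma over all genes with p-values adjusted by Benjamini and Hochberg. An adjusted p under 0.05 counts as a call. None of the 10 genes passed in any paradigm, where limma called 0% of the genes tested in each (0 of 13164 acute, 0 of 13190 chronic, 0 of 13135 conditioning and 0 of 13130 self-administration). At an unadjusted p under 0.05 there were 515 genes (3.91%) in the acute, 974 (7.38%) in the chronic, 1078 (8.21%) in the conditioning and 450 (3.43%) in the self-administration paradigm.

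P2ry13 had the most negative cocaine difference of the 10 genes in the acute, chronic and conditioning paradigms. In the acute paradigm it had 2.61, 3.07, 2.51, 1.75 and 2.57 FPKM in the cocaine libraries, against 3.00 to 3.91 FPKM (median 3.39) in the saline libraries. All 5 cocaine libraries lay below the saline median and 4 lay below every saline library, so the groups overlapped by a single cocaine library. The difference was -0.33 ± 0.09 (SE), with an unadjusted p of 0.00275 and an adjusted p of 0.985 in limma. In conditioning the 6 cocaine libraries ran from 1.95 to 2.55 FPKM (median 2.11), against 2.47 to 3.55 FPKM (median 3.14) in the 6 saline libraries. Again 5 of the 6 cocaine libraries lay below every saline library. P2ry13 was 3rd of 13135 genes by p there, at -0.37 ± 0.07 with an adjusted p of 0.591.

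In the chronic paradigm P2ry13 ran from 2.31 to 3.14 FPKM (median 2.89) in cocaine libraries and from 3.00 to 4.01 FPKM (median 3.10) in saline libraries. Of the 6 cocaine libraries, 4 lay below every saline library. The difference was -0.16 ± 0.07, with an adjusted p of 0.671. In self-administration the 15 cocaine libraries ran from 1.47 to 3.23 FPKM (median 1.97) and the 9 saline libraries from 1.56 to 2.79 FPKM (median 2.22). The groups overlapped over most of their range, with 11 of 15 cocaine libraries below the saline median, and the difference was -0.07 ± 0.09 (adjusted p 0.999).

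P2ry12, the neighbour and relative of P2ry13, had differences of both signs. After acute cocaine it had 11.7, 9.97, 9.93, 7.19 and 10.5 FPKM, against 9.73 to 13.0 FPKM (median 10.6) after saline, and the groups overlapped. Its difference was -0.15 ± 0.10 in the acute, 0.03 ± 0.08 in the chronic, -0.30 ± 0.12 in the conditioning and -0.11 ± 0.16 in the self-administration paradigm. The ratio of P2ry12 to P2ry13 was 3.98 ± 0.452 after acute cocaine and 3.24 ± 0.190 after acute saline, 3.96 ± 0.623 after chronic cocaine and 3.33 ± 0.329 after chronic saline (SD). In conditioning the ratio was 4.15 ± 0.517 after cocaine and 3.65 ± 0.415 after saline, and in self-administration 4.03 ± 0.911 after cocaine and 4.05 ± 0.846 after saline. Med12l, the gene around both receptors, had differences of -0.14 ± 0.06 (acute), -0.10 ± 0.05 (chronic), -0.00 ± 0.04 (conditioning) and -0.03 ± 0.07 (self-administration), and its part in the receptors' values was not tested.

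The C1q chains had no common direction across paradigms. After chronic cocaine C1qb ran from 36.1 to 41.1 FPKM (median 38.3), against 33.3 to 38.3 FPKM (median 35.5) after saline. No cocaine library lay below the saline median, and 3 lay above every saline library. The difference was 0.11 ± 0.04 with an unadjusted p of 0.0249 and an adjusted p of 0.631, and C1qa and C1qc lay at 0.16 ± 0.08 and 0.10 ± 0.06. In conditioning the same chains lay at -0.16 ± 0.09 (C1qb), -0.22 ± 0.10 (C1qa) and -0.24 ± 0.10 (C1qc). In the acute paradigm they lay between -0.01 and 0.09, and in self-administration between -0.04 and 0.09.

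In conditioning all 10 genes were below 0, where 50.1% of all genes tested were, and their median difference was -0.20 against -0.00 over all genes. Of the 10, 6 had an unadjusted p under 0.05 and were lower (P2ry13, P2ry12, Siglech, C1qc, Cx3cr1 and C1qa), against 4.28% of all genes that were lower at that limit. The summed FPKM of the 10 genes ran from 145 to 167 (median 151) in cocaine libraries and from 153 to 229 (median 165) in saline libraries. A pair of saline libraries, numbers 0 and 1, stood above the others of the paradigm, at 229 and 199 FPKM. C1qa was 30.4 to 34.1 FPKM in the cocaine libraries, against 51.7 and 44.5 FPKM in these saline libraries and 31.8 to 37.0 FPKM in the other 4. Without both, an alternative chosen after the values were seen, the median of the 10 differences was -0.07, P2ry13 lay at -0.32, Csf1r at 0.04, and no adjusted p of the 10 was below 0.998.

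In the other paradigms the median of the 10 differences was -0.01 (acute), 0.03 (chronic) and -0.06 (self-administration), against -0.00 (acute), 0.00 (chronic) and -0.00 (self-administration) over all genes. Lower at an unadjusted p under 0.05 were 1 of the 10 genes in the acute paradigm (P2ry13) beside 1.74% of all genes, and 1 in the chronic paradigm (P2ry13) beside 3.23%. Higher at that limit in the chronic paradigm was 1 of the 10 (C1qb) beside 4.15% of all genes. In self-administration 0 of the 10 were past that limit beside 3.43% of all genes in either direction, and the gene with the smallest p was Trem2 at -0.22 ± 0.13 (unadjusted p 0.114). The groups of none of the 10 genes parted fully in any paradigm, while those of 0.311% (acute), 0.516% (chronic), 0.404% (conditioning) and 0% (self-administration) of the genes tested did.

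**Figure D2:**
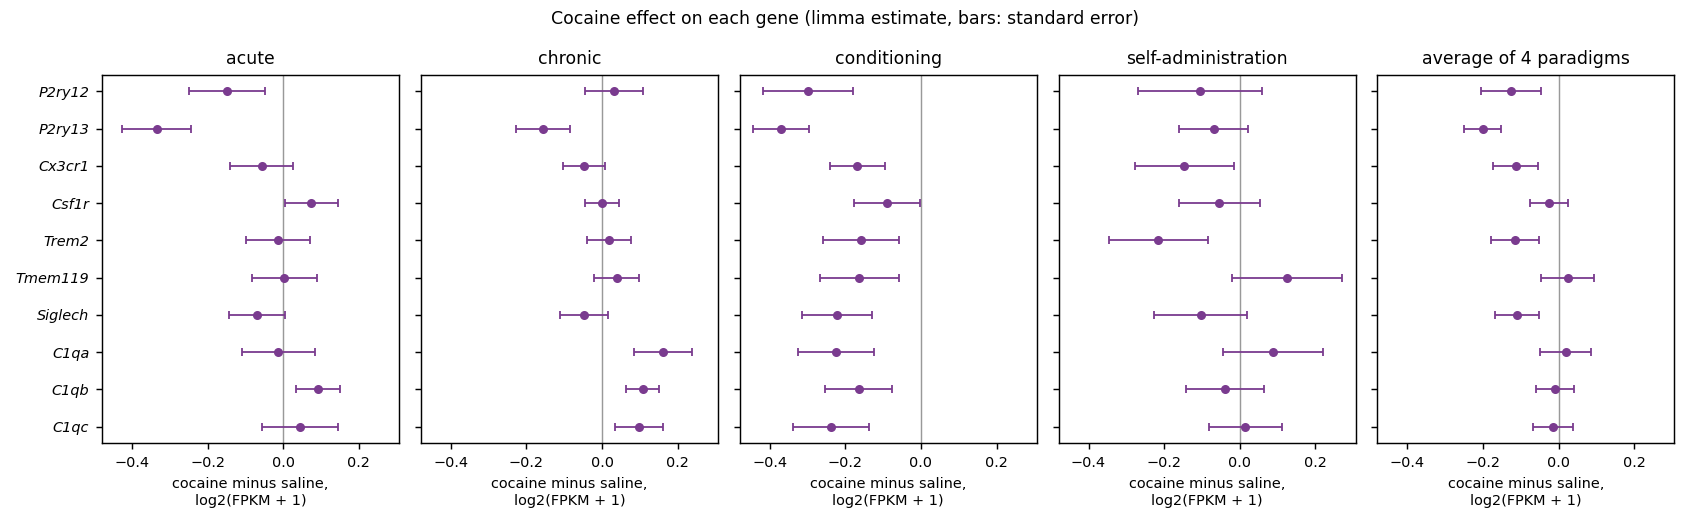
Cocaine minus saline on log2(FPKM + 1) (horizontal axes) for each gene in the 4 paradigms and on average, with points for the limma estimate and bars for its standard error. P2ry13 lies left of 0 in all panels, from -0.37 in conditioning to -0.07 in self-administration, and in conditioning all 10 genes lie left of 0.

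The average effect of cocaine over the 59 libraries, with the paradigm as an additive term, called 1 of 13186 genes (0.00758%) and 0 of the 10. P2ry13 was 7th by p, at -0.20 ± 0.05 with an adjusted p of 0.205 in limma. It was the only one of the 10 with an unadjusted p under 0.05, where 12.8% of all genes were past that limit and 6.34% were lower. With library quality weights it lay at -0.21 and passed (limma adjusted p 0.0232), in a fit that called 41 genes where the fit without weights called 1. Siglech lay at -0.11 ± 0.06, Cx3cr1 at -0.11 ± 0.06, Trem2 at -0.12 ± 0.06 and P2ry12 at -0.13 ± 0.08. The C1q chains lay between -0.02 and 0.02. The median of the 10 was -0.07, against -0.00 over all genes, and 8 of the 10 were negative beside 50.4% of all genes. Without conditioning saline libraries 0 and 1 the median was -0.04 and 6 were negative.

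Over the 35 libraries of the acute, chronic and conditioning paradigms the call for P2ry13 changed. There P2ry13 fell by 0.29 ± 0.05 on the log2 scale (limma adjusted p = 0.00993), was 1st of 13173 genes by p, and was one of only 2 genes called (0.0152%). The count of cocaine libraries under the saline median of their paradigm was 5 of 5 in acute, 4 of 6 in chronic and 6 of 6 in conditioning. When each of the 35 libraries was left out in turn, the difference stayed between -0.30 and -0.26 and the adjusted p between 0.00441 and 0.0254. These settings were chosen after the values were seen, as was the next. Without both conditioning saline libraries 0 and 1 it lay at -0.26 with an adjusted p of 0.0649, and the call ended. The other 9 genes did not pass, with adjusted p from 0.303 (Siglech, -0.11 ± 0.05) to 0.960 (Csf1r, -0.01 ± 0.04).

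Whether cocaine effects differed between paradigms was tested as a contrast of differences in one fit of all groups, 6 contrasts in all. Limma called 0 of 13186 genes in each, and every adjusted p of the 10 genes was 1.00 after rounding. P2ry13 was -0.07 in self-administration and -0.37 in conditioning, a difference of effects of 0.30 ± 0.13 with an unadjusted p of 0.0209. Against acute it was 0.27 ± 0.13 (unadjusted p 0.0465). For C1qc, conditioning minus chronic gave a difference of effects of -0.34 ± 0.16 (unadjusted p 0.0427 in limma). These contrasts are named because their unadjusted p was under 0.05, and the share of all genes at that limit is not given. Without conditioning saline libraries 0 and 1, P2ry13 in self-administration minus conditioning lay at 0.25. C1qc in conditioning minus chronic lay at -0.23 in that fit.

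The paradigms themselves were compared within saline and within cocaine groups, which asks how levels varied at the same drug. A paradigm and any batch of libraries that went with it cannot be told apart, and the labels give no batch. Self-administration saline differed from acute saline in 45.7% of 13186 genes, from chronic saline in 46.8% and from conditioning saline in 49.3%, so calls were common among all genes. Lower calls alone made up 21.7%, 21.6% and 22.9% of genes in that order.

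On log2(FPKM + 1), which compresses differences of low genes, Trem2 had the most negative difference of the 10 genes in all 6 contrasts of self-administration with another paradigm. By the ratio of mean FPKM it was lowest in 5, and against acute saline P2ry13 was at 0.660 and Trem2 at 0.668. It ran from 2.27 to 7.20 FPKM (median 3.95) in self-administration cocaine and from 3.40 to 7.20 FPKM (median 4.97) in self-administration saline. In the other paradigms the cocaine libraries ran from 6.22 to 9.24 FPKM and the saline libraries from 6.69 to 10.8 FPKM. Of the 24 self-administration libraries 22 lay below every library of the other paradigms, and the share of all genes that do so was not counted. In saline libraries the difference was -0.52 ± 0.13 against acute (limma adjusted p = 0.000608), -0.52 ± 0.13 against chronic (0.000625) and -0.65 ± 0.13 against conditioning (2.54e-05).

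P2ry13 also fell in self-administration saline, by 0.45 ± 0.09 against acute, 0.40 ± 0.09 against chronic and 0.34 ± 0.09 against conditioning saline. It was the only gene of the 10 whose self-administration saline libraries (1.56 to 2.79 FPKM) did not overlap acute saline (3.00 to 3.91 FPKM) or chronic saline (3.00 to 4.01 FPKM). Over all genes tested 8.16% and 7% lay below without overlap, so 1 of the 10 was near those shares. C1qc fell in all 3 saline contrasts, by 0.47, 0.41 and 0.61 in the same order, each with an SE of 0.10. It averaged 21.4 ± 3.78 FPKM in self-administration saline, against 29.7 ± 1.97 in acute, 28.5 ± 2.34 in chronic and 33.0 ± 4.19 in conditioning saline (SD).

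In all, 5 of the 10 genes fell against acute saline (C1qa, C1qc, Cx3cr1, P2ry13 and Trem2). Against chronic saline 3 fell (C1qc, P2ry13 and Trem2), and against conditioning saline 8, all but P2ry12 and Csf1r. Over all genes 21.7%, 21.6% and 22.9% were lower in that order, so the count against chronic saline lay near that share. With library quality weights 7 fell against acute saline and 7 against chronic saline, with C1qb and Tmem119 added in the first and C1qa, C1qb, Cx3cr1 and Tmem119 in the second. Csf1r rose in both with weights. Weights raised the count of genes called in several other contrasts, and the share of all genes called here with weights is not given. Without self-administration saline library 4, 6 fell against acute saline (C1qb added), 4 against chronic saline (C1qa added) and 8 against conditioning saline. The share of all genes lower in that fit is not given. The Cx3cr1 call against acute saline (adjusted p = 0.0459) was lost when libraries were scaled to equal medians (0.0670). Without conditioning saline libraries 0 and 1 there were 5 falls against conditioning saline, and C1qb, Cx3cr1 and Siglech no longer passed. Genes called in either direction numbered 5778 there, against 6507 with that pair kept. The median of the 10 differences was -0.29, -0.28 and -0.38, against 0.02 over all genes in each contrast.

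Csf1r was the exception in direction. It lies at chr18:61100598-61132149 on the plus strand and overlaps Hmgxb3 on the other strand. Its level ran from 11.6 to 24.6 FPKM (median 17.5) in self-administration cocaine and from 12.3 to 22.8 FPKM (median 18.9) in self-administration saline, against 14.1 to 23.3 FPKM in the 35 other libraries. In saline libraries it lay at 0.22 ± 0.10 against acute (adjusted p 0.0798), 0.19 ± 0.10 against chronic (0.119) and 0.08 ± 0.10 against conditioning (0.525). After scaling libraries to equal medians the first of these was 0.25 with an adjusted p of 0.0451. Hmgxb3 lay at 0.10 ± 0.05 against acute saline, and its part in the Csf1r values was not tested.

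The ratio of Trem2 to Csf1r parted self-administration from the other paradigms. It ran from 0.154 to 0.321 in the 24 self-administration libraries and from 0.406 to 0.563 in the 35 others, with no overlap. The ratio was formed after the values of both genes were seen and was not tested. How many gene ratios part the libraries in this way was not counted, and calls between these paradigms were common among all genes. The summed C1q chains relative to Csf1r were also lower, 4.54 ± 0.671 in self-administration libraries and 6.35 ± 0.447 in the others (SD).

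**Figure D3:**
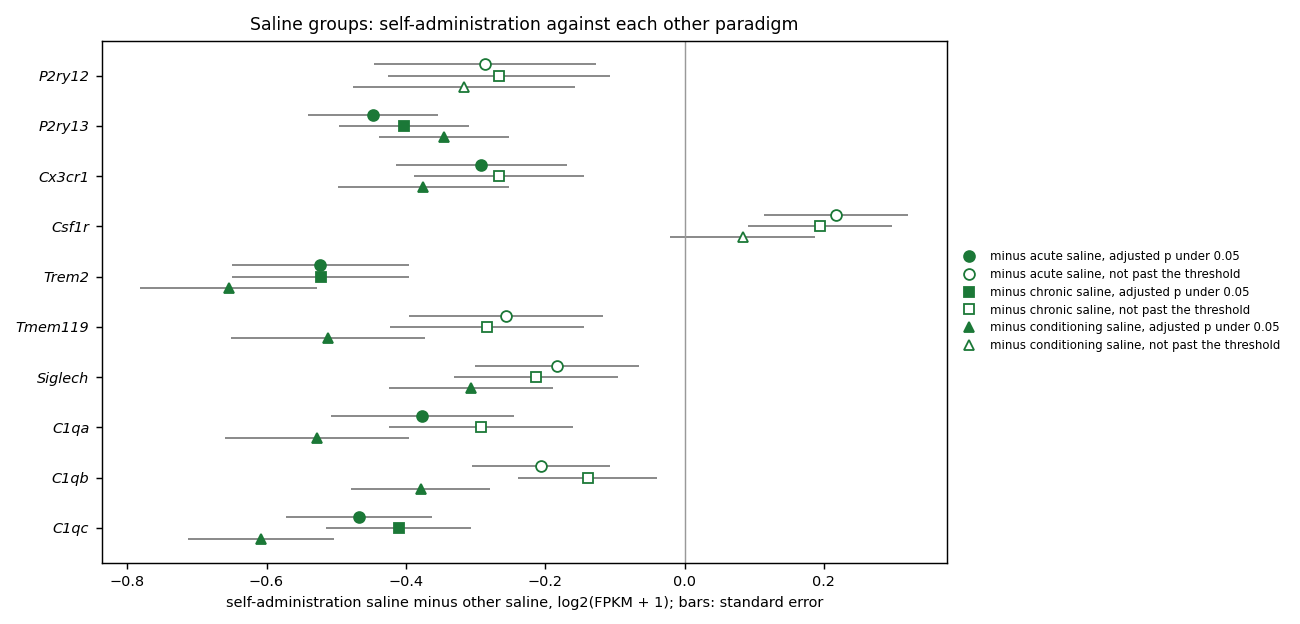
Self-administration saline minus each other saline group on log2(FPKM + 1) (horizontal axis), by gene, with bars for the standard error; filled symbols have a limma adjusted p under 0.05. Csf1r alone lies right of 0, and Trem2, P2ry13 and C1qc are filled in all 3 contrasts.

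**Figure D4:**
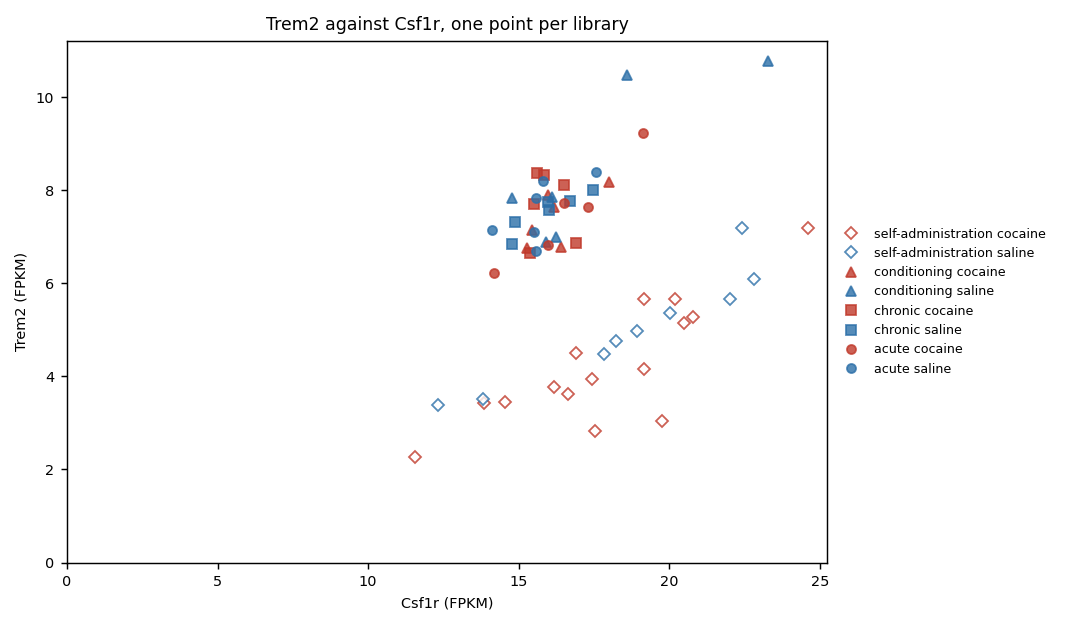
Trem2 (vertical axis, FPKM) against Csf1r (horizontal axis, FPKM), 1 point per library, with shapes for paradigms and colours for cocaine and saline. The 24 self-administration libraries (open diamonds) have lower Trem2 at a given Csf1r than the 35 others.

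Among cocaine groups the same comparison called 44.4% of genes against acute, 48.2% against chronic and 48.6% against conditioning, and 20.8%, 22.3% and 22.5% lower. C1qb, C1qc, Cx3cr1 and Trem2 fell in self-administration cocaine in all 3 contrasts, and C1qa, P2ry12, P2ry13 and Siglech also fell against chronic cocaine. Trem2 lay at -0.73 ± 0.12 against acute, -0.76 ± 0.12 against chronic and -0.71 ± 0.12 against conditioning cocaine. In fits of only the groups compared, Cx3cr1 against acute cocaine (adjusted p 0.0621) and Siglech against chronic cocaine (0.0753) no longer passed. With library quality weights 7 fell against acute cocaine, where 4 did without them, and the share of all genes called with weights is not given. Tmem119 and Csf1r did not pass in these contrasts without weights. Between the acute, chronic and conditioning groups none of the 10 genes was called in saline, beside 0% to 0.0834% of genes, or in cocaine, beside 0% to 0.159%.

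Ordered by mean, conditioning saline was the highest of the 8 groups for 8 genes, acute saline for P2ry13 and self-administration saline for Csf1r. This order rested on conditioning saline libraries 0 and 1: by median that group was highest for 3 genes (Cx3cr1, Tmem119 and Siglech), and by mean without the pair for 1 (Tmem119). Neighbours in the order by mean mostly did not differ beyond their spread. Of the 7 steps between neighbours, 1 exceeded the larger SD for C1qb, C1qc and Trem2, and 0 did for the other 7 genes. The highest group mean was 1.99-fold the lowest for Trem2, 1.61-fold for P2ry13, 1.54-fold for C1qc and 1.19-fold for Csf1r.

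The spread among libraries was wider in self-administration. The summed level of the 10 genes was 131 ± 25.2 FPKM in self-administration cocaine and 133 ± 25.3 FPKM in self-administration saline, and its coefficient of variation was 18.7% over the 24 self-administration libraries and 10.7% over the 35 others. P2ry12 ran from 3.18 to 15.1 FPKM in self-administration libraries and from 7.19 to 15.4 FPKM in the others.

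How the genes varied together was read from deviations from the group mean, so that group differences did not enter. All 45 pairs correlated positively in both sets of libraries. Pearson's r ran from 0.154 to 0.930 (median 0.722) in the 24 self-administration libraries and from 0.246 to 0.784 (median 0.612) in the 35 others. Libraries share depth and tissue make-up over all genes. A family of 6 pairs was tested in each set by permutation (100000 resamples, two-sided, adjusted over 12 tests), where 1e-05 is the smallest p the permutations can give.

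The C1q chains varied closely together. C1qb and C1qc had r = 0.93 (Spearman's rho 0.91) in self-administration and 0.71 (0.78) in the other libraries, and C1qa and C1qc had 0.87 (0.81) and 0.76 (0.78). C1qa and C1qb had 0.75 (0.67) and 0.76 (0.66). For each of these the permutation p of r was 1e-05, adjusted 2e-05, and without the 2 libraries farthest from the median of the first gene r stayed between 0.63 and 0.90. P2ry12 and P2ry13 had r = 0.70 (0.68) in self-administration and 0.67 (0.66) in the others, with adjusted permutation p of 0.000213 and 3.43e-05, and 0.57 and 0.58 without 2 libraries.

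C1qa and P2ry12 had r = 0.15 (rho 0.08, adjusted permutation p = 0.471) in self-administration libraries and 0.57 (rho 0.49, adjusted permutation p = 0.000324) in the others. Without the 2 libraries farthest from the median the values were 0.05 and 0.40. C1qa and Cx3cr1 had r = 0.35 (rho 0.31, adjusted permutation p = 0.0978) in self-administration and 0.64 (rho 0.56, adjusted permutation p = 9e-05) in the others, and 0.25 and 0.51 without 2 libraries. The difference between the sets was not tested.

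**Figure D5:**
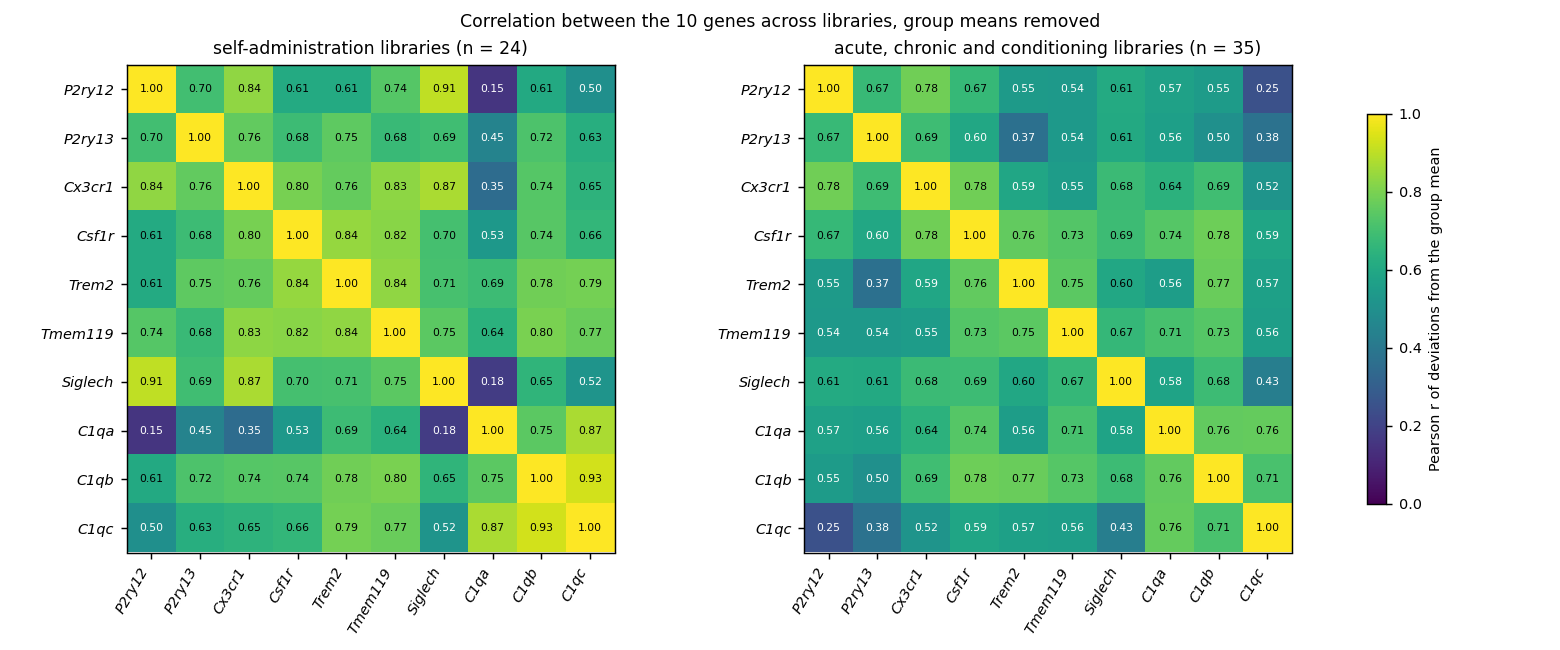
Pearson r between each pair of the 10 genes across libraries, from deviations of log2(FPKM + 1) from the group mean, in the 24 self-administration libraries (left) and the 35 acute, chronic and conditioning libraries (right). In self-administration C1qa has its lowest r with P2ry12 (0.15) and Siglech (0.18), while C1qb and C1qc reach 0.93.

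Outside the 10, the genes whose deviations were most like the mean of the 10 over 59 libraries were Laptm5 (r = 0.88), a lysosomal membrane protein of blood and immune cells, and Itgam (0.86), the CD11b chain of the complement receptor CR3. After these came 4632428N05Rik (0.83), Selplg (0.83), Bin2 (0.82), Mpeg1 (0.82), Fcrls (0.81), Olfml3 (0.79), Pld4 (0.79) and Hcls1 (0.78). The median r of all genes with the mean of the 10 was -0.01. For P2ry12 alone the nearest included the receptor Gpr34 (0.89), Aif1 (0.82), Itgam (0.81) and Mpeg1 (0.80). For C1qa alone they were Ftl1, the ferritin light chain (0.79), Dgcr6 (0.78), the ribosomal protein Rplp1 (0.77), Gnb2 (0.76) and Slc25a39 (0.75), and none of these 5 is on a microglial list used here.

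Gene lists of other cell types varied with the 10 across libraries to differing degrees. In self-administration and in the other libraries, the mean deviation of astrocyte genes correlated with that of the 10 at r = 0.61 and 0.55. Oligodendrocyte precursor genes had 0.69 and 0.14, and dopamine neuron genes -0.12 and 0.54. Endothelial genes had 0.13 and -0.59, neuron genes -0.07 and -0.44, and oligodendrocyte genes 0.34 and -0.22. These values were not tested. Other microglial identity genes varied most closely with the 10, at r = 0.91 in self-administration and 0.93 in the other libraries. In conditioning 20 of 21 tested were negative with 0 called and a median of -0.12, with Rnase4, a secreted ribonuclease, at -0.21 ± 0.08, Olfml3 at -0.13 ± 0.06, Cd53 at -0.19 ± 0.09 and Itgam at -0.17 ± 0.08 (adjusted p 0.591 to 0.607). Their summed FPKM ran from 183 to 219 in cocaine libraries, against 286 and 246 in conditioning saline libraries 0 and 1 and 196 to 217 in the other 4. Without that pair 15 of 21 were negative with a median of -0.03 and 0 called. With all conditioning libraries kept, 50.1% of all genes were negative and 0% were called. In the average effect 17 of 21 were negative with a median of -0.04 and 0 called, and without that pair 14 were, with a median of -0.02. Gpr34 lay at -0.18 ± 0.07 (adjusted p 0.287) and Cd53 at -0.12 ± 0.04 (0.247).

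In self-administration saline against chronic saline 7 of 21 identity genes rose and 5 fell, beside 25.2% of all genes higher and 21.6% lower, so the counts lay near those over all genes. Mertk, a receptor for the uptake of dead cells, rose by 0.89 ± 0.08 and Fcgr3, an Fc receptor, by 0.67 ± 0.12. Fcrls fell by 0.81 ± 0.16 and Spi1, which encodes PU.1, by 0.35 ± 0.11. Bin2 fell by 0.67 ± 0.11 among the ligands and signalling partners, of which 3 of 8 rose and 2 fell. Il34, a ligand of CSF1R, rose by 0.30 ± 0.09 and Csf1 by 0.15 ± 0.06. Self-administration saline library 4 had the highest sum of blood leukocyte genes in its group. Without it 1 of these 8 rose and 3 fell, and Csf1 no longer passed (limma adjusted p 0.0691). The share of all genes called in that fit is not given.

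Of the genes of activated microglia that were tested, none was called in any cocaine comparison. Limma called 0% of all genes in each paradigm and 0.00758% in the average effect, so this count lay near that share. Only 12 of the 22 on that list averaged at least 1 FPKM over all libraries. Low genes such as Cst7, Itgax, Clec7a, Tnf and Il1b were not tested. Of 12 tested in the average effect, 5 were positive and 7 negative, and Spp1, the secreted phosphoprotein osteopontin, lay at 0.67 ± 0.20 with an adjusted p of 0.247. In self-administration saline against chronic saline 4 of 12 rose and 2 fell, near the shares of 25.2% and 21.6% over all genes. Cd68, a lysosomal protein, rose by 0.35 ± 0.09 and Cd74 by 0.88 ± 0.31, while Apoe, the lipid carrier made mostly by astrocytes, fell by 0.58 ± 0.10. Of 8 tested complement genes outside C1q, 3 rose and 1 fell in that contrast, where 46.8% of all genes were called. C4b, the complement protein cleaved after C1q binds, rose by 0.71 ± 0.21, with 5.10 ± 2.21 FPKM in self-administration saline and 2.70 ± 1.21 FPKM in chronic saline (SD).

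Some markers of other cell types differed between self-administration saline and chronic saline, where 25.2% of all genes were higher and 21.6% lower. Against chronic saline, 6 of 8 oligodendrocyte genes fell in self-administration saline. Astrocyte genes went both ways (3 of 8 rose, 2 fell), near the shares over all genes. The neutrophil genes S100a8 and S100a9 rose by 2.19 ± 0.57 and 1.60 ± 0.53. The summed FPKM of 12 blood leukocyte genes ran from 0.684 to 72.4 in self-administration saline and from 0.440 to 1.77 in chronic saline. The highest value was that of library 4, and the next was 24.97. The summed FPKM of 4 red blood cell genes was 1065 in library 4, and the next in its group was 167. In self-administration cocaine it was 1107 in library 6, and the next was 196. Cocaine library 6 was not left out of contrasts between paradigms. Without library 4 S100a8 and S100a9 still rose, by 1.82 ± 0.54 and 1.26 ± 0.50, and S100a8 was listed at 0 in 4 of the 6 chronic saline libraries. That of 8 perivascular macrophage genes ran from 4.17 to 13.1 in self-administration saline and from 4.61 to 8.08 in chronic saline. Of 7 dopamine neuron genes, 0 rose and 2 fell in self-administration saline against chronic saline, the falls near the share over all genes. In conditioning, that of the perivascular macrophage genes ran from 3.52 to 6.17 in cocaine and from 4.19 to 7.46 in saline libraries, all 8 oligodendrocyte genes were positive with 0 called, and 5 of 8 astrocyte genes were negative with 0 called. All 7 dopamine neuron genes were negative with 0 called in the acute paradigm (median -0.47) and in conditioning (median -0.14). Limma called 0% of all genes in each of these paradigms. Without conditioning saline libraries 0 and 1, 5 of the 7 were positive in conditioning (median 0.17, 0 called). The part of these cell types in the levels of the 10 genes was not tested.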

How the data were processed

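RNA from the ventral tegmental area was sequenced in 59 libraries. Per the labels' protocols, an RNeasy kit purified the RNA and a TruSeq RNA kit served for library preparation. The authors deposited FPKM values by symbol and library, and the submitters' processing notes name Bowtie, Cuffnorm and mm10. Tool versions, annotation and scaling option are not stated in the sources read. Columns were mapped to groups by name, and libraries carry the column numbers, which count from 0. FPKM depends on library composition and fragment length, so a few abundant transcripts can move many values. The most frequent step among low values held 0.646% to 6.36% of low genes in a library, so whole reads were not recovered and no count test was run.

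On log2(FPKM + 1), limma 3.58.1 in R 4.3.3 tested each gene that averaged 1 FPKM or more in a comparison's libraries, two-sided, with a trended, robust empirical Bayes variance and Benjamini-Hochberg adjustment. The script was tested on simulated data. Contrasts were cocaine minus saline inside a paradigm and on average with paradigm as a term, and between paradigms in one fit of 8 group means. Alternatives were other pseudocounts, filters, scalings, library weights and left-out libraries. The 10 genes, the other lists and the rules were chosen with earlier results of these data known. Named genes of other lists were up to 4 with the smallest p, plus calls. One gene that the naming rule selects is not reported here.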

Additional observations from a re-analysis of the deposited data

Results flagged for a closer look

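Of 77 combinations of 11 measures and 7 groups examined, 2 were flagged, no more than chance gives at about 1 in 20. The 2 are not independent, because P2ry13 is part of the summed level of the 10 genes. Both fell on library 3 of chronic saline, which stood apart from the other 5 libraries of its group. Its P2ry13 value was 4.01 FPKM, and the next highest was 3.29 FPKM. Its summed level of the 10 genes was 173 FPKM, and the next highest was 156 FPKM.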

How the results depend on the processing

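No paired analysis was possible because column numbers in the table start at 0 and match no replicate number of the labels with certainty. Leaving out libraries one at a time was not run for contrasts between paradigms. Read depth limits the low genes to an unknown degree. No scaling moved the median of all genes beyond 0.1. The alternatives without conditioning saline libraries 0 and 1, without self-administration saline library 4 and with ratios of mean FPKM were chosen after seeing the data. The cause of the changes below was not tested.

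Under library weights the average effect called 41 genes and 1 of the 10 (P2ry13, -0.21, adjusted p 0.0232 in limma); the count of genes was 0 with a mean of at least 5 FPKM, 0 without the acute paradigm and 2 (1 of the 10) without self-administration. Weights gave 1 gene each in conditioning and self-administration, and one fit of all groups gave 1 in chronic and 2 in self-administration. The share of all genes called with weights is not given for contrasts of self-administration with other paradigms. Weights gave 1 of the 10 for conditioning minus chronic cocaine (P2ry13, -0.30), 7 for self-administration minus acute cocaine, and 8 each (7 lower and Csf1r higher) for self-administration minus acute and minus chronic saline; against conditioning saline, 5 passed without libraries 0 and 1. That last fit called 5778 of all genes, against 6507 with these libraries kept. With only the groups compared, Cx3cr1 against acute cocaine and Siglech against chronic cocaine and conditioning saline no longer passed (limma adjusted p 0.0621, 0.0753 and 0.0825).

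Between the other paradigms, weights called 71 genes (chronic minus acute cocaine, 0 in the fit reported), 207 (same, saline, 0), 29 (conditioning minus acute cocaine, 0), 387 (conditioning minus chronic cocaine, 21), 34 (conditioning minus acute saline, 1) and 447 (conditioning minus chronic saline, 11). With only the groups compared the last 4 gave 2, 46, 12 and 47, and without libraries 0 and 1 the last pair gave 0 and 3.

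Sign changes were limited to small differences that passed no test. C1qa changed sign in the average effect without chronic (-0.019) and without self-administration (-0.026), and in acute with weights (0.070). C1qb did so in the average effect without libraries 0 and 1 (0.022), with weights (0.034), without conditioning (0.031) and without self-administration (0.0089), and in self-administration with weights (0.096). C1qc did so in the average effect without libraries 0 and 1 (0.013), with weights (0.058) and without conditioning (0.044). Csf1r did so in chronic with weights (-0.020) and quantile scaling (-0.0056), and in conditioning without libraries 0 and 1 (0.038). Tmem119 did so in the average effect without self-administration (-0.042), and Trem2 in acute with weights (0.035).

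Leaving out 1 library at a time, the average effect ran from -0.0046 to 0.040 for C1qa, -0.024 to 0.013 for C1qb, -0.030 to 0.0048 for C1qc and -0.014 to 0.052 for Tmem119. In acute it ran from -0.098 to 0.059 for C1qa, -0.033 to 0.13 for C1qc, -0.11 to 0.0079 for Cx3cr1, -0.065 to 0.066 for Tmem119 and -0.081 to 0.045 for Trem2. In chronic it ran from -0.020 to 0.025 for Csf1r, -0.0071 to 0.076 for P2ry12 and -0.0066 to 0.053 for Trem2, and in self-administration from -0.078 to 0.019 for C1qb and -0.024 to 0.071 for C1qc. None of the 10 passed in these, and the genes called numbered 1 to 3 on average, 0 to 1 in chronic and 0 in the others.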
